A study of Homo sapiens and Mus musculus with 26 samples.

Results

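The genes described here build, lengthen and desaturate fatty acids. They are the 10 mouse genes Fads1, Fads2, Scd1, Scd2, Elovl2, Elovl5, Elovl6, Fasn, Acaca and Srebf1. They were taken as a named list for their roles and followed through every comparison of treated with control samples. The list was chosen with earlier results of these data known, so its counts of called genes are not an independent test. The human tables hold 9 counterparts, since the single human SCD stands for both mouse Scd1 and Scd2. All 10 were among the 22575 genes tested in mouse testes, and all 9 were among the 16694 and 17256 genes tested in the parental and the cisplatin-resistant tumor cells.

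RNA-seq was performed on whole testes of CD-1 mice, bought at 5 to 8 weeks of age and dosed daily by mouth for 15 days with a vehicle as control, with PFOS at a lower (5 mg/kg) or higher (20 mg/kg) dose, or with GenX at 20 mg/kg, 3 testes a group. It was also performed on cultures of 2102EP cells (EP here), a parental human testicular germ cell tumor (TGCT) line of embryonal carcinoma type, treated for 4 days with vehicle, 10 nM PFOS or 5 µM PFOS, with 2 cultures a group. The third set was 2102EP-C1 (C1 here), a cisplatin-resistant line derived from EP and thus 1 clone, treated for 4 days with vehicle or 10 nM PFOS, with 4 cultures a group. PFOS and GenX are perfluoroalkyl substances (PFAS), chains of fluorinated carbon that end in a sulfonate in PFOS and, with an ether oxygen in the chain, in a carboxylate in GenX. The study's methods state biological quadruplicates for the cell cultures, as the labels show for C1, while the labels analysed here give 2 cultures a group for EP. The labels do not say which cultures were set up separately, so the p-values measure the spread between these samples.

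Cells make fatty acids from acetyl-CoA. Acetyl-CoA carboxylase (Acaca) makes malonyl-CoA, fatty acid synthase (Fasn) joins these units to palmitate, elongases (Elovl genes) lengthen the chain and desaturases (Scd and Fads genes) place double bonds in it. Srebf1 encodes SREBP-1, a transcription factor that raises the expression of most of these enzymes. Testes are known for a high content of very long polyunsaturated fatty acids, for whose synthesis in germ cells Elovl2 is needed.

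Reads on genes numbered 14.2 to 19.9 M per testis, 33.3 to 48.7 M per EP culture and 25.6 to 32.8 M per C1 culture. Values are given as CPM, counts per M reads of the library after the authors' normalization. Differences are log2 fold changes from limma, and a gene is said to rise or fall when its Benjamini-Hochberg adjusted p over all genes of the table was under 0.05. Spermatid markers, which identify testis, summed to 47665 to 59102 CPM in control testes, and embryonal carcinoma markers to 4755 to 4779 CPM in EP controls. On the first principal component of the testes (32.5% of the variance), testis 3 of the 20 mg/kg PFOS group lay at 67.0, near the GenX testes at 51.1 to 63.3 and far from the other testes of its group at -6.32 and -1.57. In C1 cells, PFOS culture 1 stood apart in the same way, at 43.6 against -6.61 to 8.48 for the other PFOS cultures.

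Set on 1 scale of CPM per kilobase of exon, the control testes were dominated by Elovl2, the elongase of long polyunsaturated chains, at a mean of 46.9 (44.8 to 48.1, n = 3). Fads2, the delta-6 desaturase, followed at 9.21, Scd2, a stearoyl-CoA desaturase, at 9.06 and Elovl5, an elongase of polyunsaturated chains, at 8.74. These neighbours in the order had overlapping ranges. Fads1, the delta-5 desaturase, lay at 3.33, Fasn at 3.22 and Acaca at 2.35 CPM per kilobase. Srebf1 at 1.69 and Elovl6, which lengthens palmitate to stearate, at 1.605 overlapped as well, and Scd1 was lowest at 0.565 (0.443 to 0.739). The human lines had another order. EP controls were highest for SCD at 129 and FASN at 93.2 CPM per kilobase and lowest for ELOVL2 at 0.381, and C1 controls were highest for SCD at 158, with ELOVL5 at 47.5, FASN at 29.99 and ELOVL2 at 0.958. The 3 tables were normalized separately, so these levels are set side by side and were not tested.

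Of the 10 genes, 6 rose and 0 fell with GenX, where 16.6% of all genes tested rose, 14.4% fell and 31% were called in either direction. The 4 desaturases Scd1, Fads1, Fads2 and Scd2 led, followed by Fasn and Elovl5, while Acaca, Srebf1, Elovl2 and Elovl6 did not pass the test. The median log2 fold change of the 10 genes was 0.49, against -0.01 over all genes. As the genes were chosen with earlier results of these data known, these counts are descriptive. In whole testes, a change in the share of cells of a type and a change in RNA per cell cannot be told apart.

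**Figure D1:**
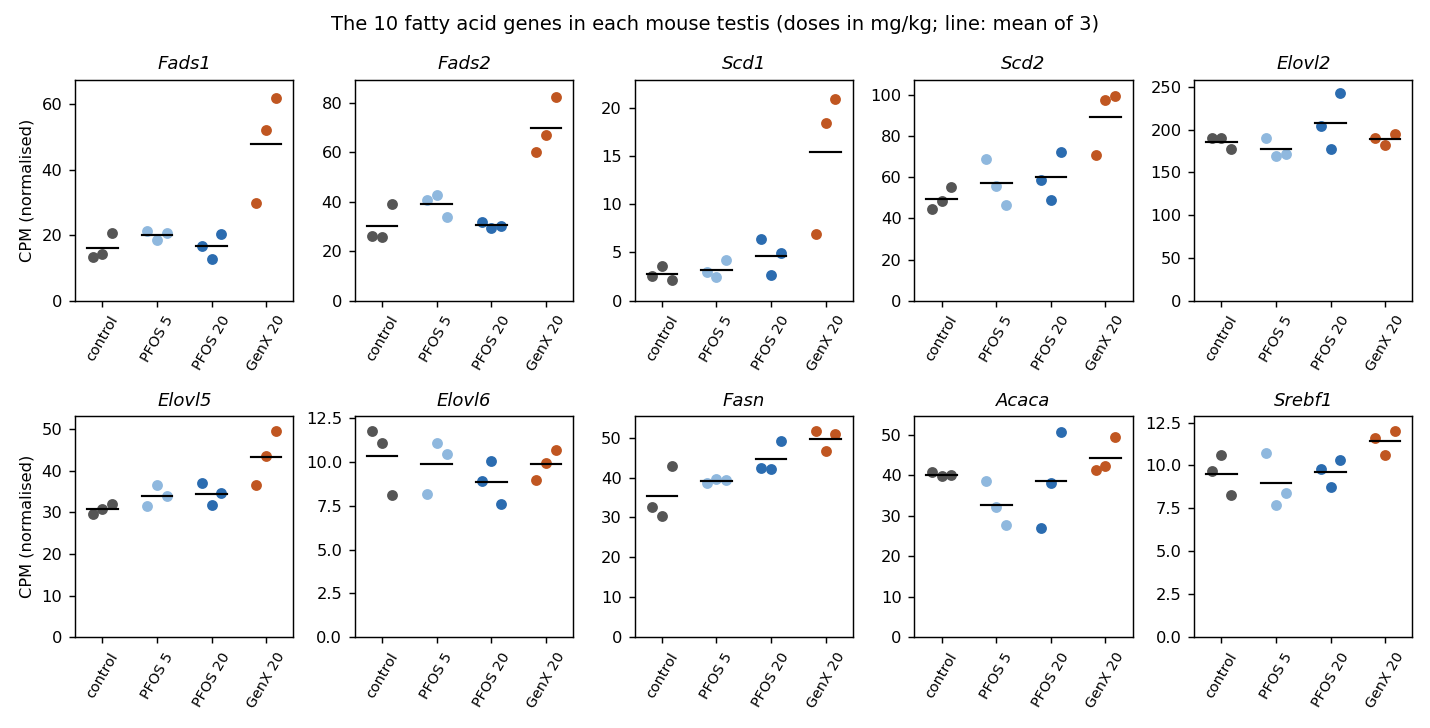
CPM on a linear axis from 0 of each of the 10 genes in every testis, grouped as control, the lower and the higher dose of PFOS, and GenX; points are single testes and lines are group means. The 3 GenX testes lie above all 3 controls for Scd1, Fads1, Fads2, Scd2, Fasn, Elovl5 and Acaca, while Elovl2 stays between 169 and 242 CPM in all 12 testes. The share of all genes that separate in this way was not counted.

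Scd1 places the first double bond in stearate and palmitate. It was at 2.51, 3.62 and 2.17 CPM in the control testes and at 6.91, 18.5 and 20.9 CPM in the GenX testes. All GenX testes were above all controls, and GenX testis 1 was well below the other two. The log2 fold change was 2.29 ± 0.41 (SE, n = 3 against 3, 95% confidence interval 1.41 to 3.18, limma adjusted p = 0.0025), a fold of 4.89. Scd2, the paralog that is more abundant in testis, was at 44.8, 48.6 and 55.1 CPM in controls and at 71.0, 97.6 and 99.7 CPM with GenX, again without overlap. It rose by 0.84 ± 0.18 (adjusted p = 0.0052). Scd1 and Scd2 lie in a cluster with Scd3 and Scd4 on mouse chromosome 19. Over the 12 testes, Scd1 had 40 to 402 reads, Scd2 685 to 1915, Scd3 57 to 113 and Scd4 1 to 13, too few for a test of Scd4. Scd3 had a log2 fold change of -0.28 with GenX (adjusted p = 0.35). How reads that match more than 1 of these paralogs were counted is not given in the sources used here.

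The delta-5 and delta-6 desaturases act in turn on the essential fatty acids to give arachidonate and its omega-3 relatives. Fads1 was at 13.4, 14.1 and 20.6 CPM in controls and at 29.95, 52.2 and 61.9 CPM with GenX. Its log2 fold change was 1.53 ± 0.25 (95% confidence interval 0.99 to 2.08, adjusted p = 0.0022). Both groups were spread, control testis 3 being high and GenX testis 1 low, but they did not overlap. Fads2 was at 26.3, 25.7 and 38.9 CPM in controls and at 60.3, 67.0 and 82.4 CPM with GenX, again with the highest control at testis 3 and the lowest GenX value at testis 1. It rose by 1.21 ± 0.16 (0.86 to 1.57, adjusted p = 0.0019). Their neighbour on chromosome 19, Fads3, a desaturase outside the list of 10, moved the other way, at a log2 fold change of -0.52 (adjusted p = 0.069), which did not pass the test.

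Elovl5, which lengthens the products of Fads2, was at 29.6, 30.8 and 32.0 CPM in controls and at 36.7, 43.6 and 49.6 CPM with GenX. The groups were apart, and the log2 fold change was 0.48 ± 0.12 (adjusted p = 0.010). This call rested on GenX testis 3, since without it the difference was 0.38 with an adjusted p of 0.0505. Elovl2 and Elovl6 gave no detectable difference. Elovl2 was at 190.7, 189.8 and 177.5 CPM in controls and at 190.5, 182.0 and 194.6 CPM with GenX (log2 fold change 0.02, 95% confidence interval -0.21 to 0.26, adjusted p = 0.89). Elovl6 was at 11.8, 11.1 and 8.11 CPM in controls and at 8.96, 9.97 and 10.7 CPM with GenX (-0.05, -0.44 to 0.34, adjusted p = 0.86).

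Fasn, the synthase itself, was at 32.7, 30.4 and 42.8 CPM in controls and at 51.6, 46.7 and 50.9 CPM with GenX. It rose by 0.51 ± 0.12 (adjusted p = 0.0097), and here GenX testis 1 was the highest of its group. Acaca was at 40.9, 39.7 and 39.96 CPM in controls and at 41.3, 42.2 and 49.4 CPM with GenX. Although its 3 GenX values lay above all controls, the difference was 0.14 (-0.27 to 0.54, adjusted p = 0.62). Srebf1, the regulator, was at 9.70, 10.6 and 8.26 CPM in controls and at 11.6, 10.6 and 12.03 CPM with GenX, a difference of 0.26 (-0.08 to 0.60, adjusted p = 0.22).

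Markers of cell types also differed between GenX and control testes, in both directions. Over all genes, 16.6% rose and 14.4% fell. Of 7 Leydig cell markers, 6 rose with GenX (median log2 fold change 1.44), and their summed level was 376 to 611 CPM in GenX testes against 83.5 to 201 CPM in controls. Their part in the result was not tested, nor was that of the other lists. Of 7 macrophage markers, 3 rose and 0 fell, their sum being 37.5 to 39.8 CPM against 23.9 to 29.6 CPM in controls. Of 9 Sertoli cell markers, 3 rose and 1 fell, their sum being 189 to 202 CPM against 140.4 to 158 CPM. Their median log2 fold change was -0.16, with 4 above 0 and 5 below. Among germ cells, 0 of 7 spermatogonial markers rose and 2 fell, 2 of 7 spermatocyte markers rose and 3 fell, and 1 of 7 spermatid markers rose and 3 fell, the last list summing to 24526 to 30362 CPM with GenX. Of 6 endothelial markers 1 rose, of 4 tested peritubular markers 2 rose, of 3 tested red blood cell markers 2 rose, and the single epididymal marker tested fell. Of 7 tested adipose markers 1 rose and 1 fell, with 5 differences above 0 and 2 below (median 0.45). Their summed level was 50.6 to 61.8 CPM against 69.8 to 82.8 CPM, most of it from Adipoq. Adipoq was at 64.0 to 75.8 CPM in controls and 43.6 to 47.9 CPM with GenX. Plin1 went the other way, at 0.479 to 0.709 CPM in controls and 1.18 to 2.92 CPM with GenX. Lep was at or below 0.460 CPM in the control and GenX testes.

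The genes around this pathway were read from 6 lists that do not contain the 10 genes. These lists too were chosen with earlier results of these data known. Together, 18 of the 54 genes tested rose and 4 fell with GenX, where 16.6% of all genes rose and 14.4% fell. The substrate supply list, which makes acetyl-CoA, NADPH and active carboxylase, gave 7 of 11 genes higher and 0 lower (median 0.47). Acly, which cleaves citrate to acetyl-CoA, rose by 1.00. Mid1ip1, which promotes the polymerisation of acetyl-CoA carboxylase, rose by 0.83, and Acss2, which makes acetyl-CoA from acetate, rose by 0.63. Of 10 regulators of lipogenesis, 1 rose, namely Srebf2 (0.76), which encodes the SREBP of cholesterol synthesis. Mlxip (0.52, adjusted p = 0.062) and Mbtps2 (0.43, adjusted p = 0.11) did not pass.

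**Figure D2:**
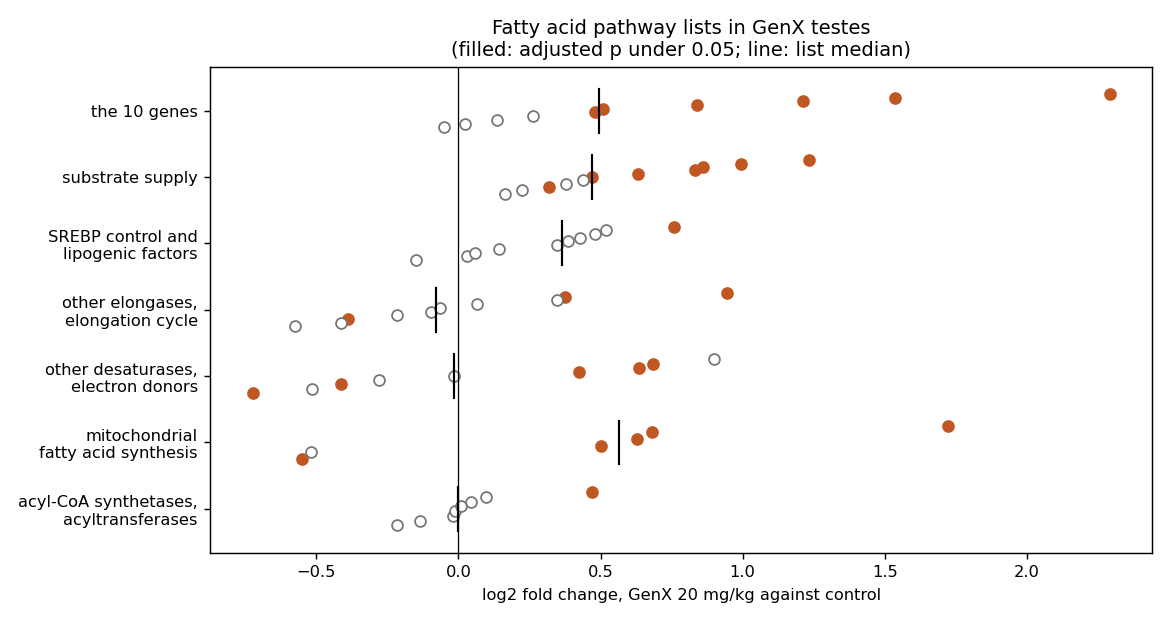
Log2 fold change of GenX against control testes for each tested gene of the 10 genes and of the 6 surrounding lists; filled points passed the adjusted p threshold of 0.05, open points did not, and the short bar is the list's median. Substrate supply, with a median of 0.47, has all 11 genes above 0, while the other elongation and desaturation genes lie on both sides of 0.

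Among the remaining enzymes of chain elongation, 2 of 10 rose and 1 fell (median -0.08). Hsd17b12, the ketoacyl-CoA reductase of the elongation cycle, rose by 0.95. The dehydratases Hacd3 (0.38) and Hacd2 (-0.39) were called in opposite directions, but Hacd3 lost its call without control testis 1 or 2 or GenX testis 1 or 3 (adjusted p up to 0.081), and Hacd2 without any testis except control testis 3 (adjusted p up to 0.10). Of 9 other desaturases and electron donors, 3 rose and 2 fell (median -0.02). Degs1, the dihydroceramide desaturase, rose by 0.64. Cyb5a, the cytochrome that hands electrons to these desaturases, had a log2 fold change of -0.72, and its reductase Cyb5r3 one of -0.41, the latter lost without GenX testis 1 (adjusted p = 0.055). In mitochondrial fatty acid synthesis, 4 of 6 genes rose and 1 fell (median 0.56). Mcat, the malonyl transferase of that pathway, rose by 1.72 and its enoyl reductase Mecr by 0.68, while Ndufab1, its acyl carrier protein, had a log2 fold change of -0.55. Of 8 acyl-CoA synthetases and acyltransferases, 1 rose, Acsl1 (0.47), which lost its call without control testis 2 or GenX testis 3 (adjusted p = 0.056 for each), and Lpcat3 (-0.13) and Acsl4 (-0.22) did not pass.

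PFOS at 5 mg/kg left the 10 genes without a call. None of them passed, where 0.00443% of all genes tested (1 gene) were called. By limma, 1 of the 10 had an unadjusted p under 0.05, as did 1143 of all 22575 genes, and limma-voom on the recovered reads called 0 of the 10. That gene was Fads2, at 40.8, 42.9 and 34.0 CPM (log2 fold change 0.39, adjusted p = 0.92), of which 2 of 3 testes lay above the highest control. Acaca was at 38.5, 32.1 and 27.8 CPM, below all 3 controls (-0.31, adjusted p = 0.92). The share of all genes that separate in this way was not counted. In the surrounding lists 0 of 54 genes were called by limma and 2 had an unadjusted p under 0.05.

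PFOS at 20 mg/kg called 6.54% of all genes tested, 3.69% higher and 2.85% lower, but 0 of the 10. By limma, 1 of the 10 had an unadjusted p under 0.05, as did 6368 of all 22575 genes, and limma-voom called 0 of the 10. The overall count turned on single testes, since it was 1477 genes with all testes and 0 without control testis 1 or control testis 2, 2278 without control testis 3, 2 without PFOS testis 3, 1762 without PFOS testis 1 and 2572 without PFOS testis 2. Fasn came nearest, at 42.5, 42.1 and 49.2 CPM (0.35, 95% confidence interval 0.08 to 0.62, adjusted p = 0.096), and passed the test without control testis 3 (0.49, adjusted p = 0.023). Scd1 was at 6.38, 2.71 and 4.97 CPM. Of these 3 testes, 2 were above all controls, and the difference was 0.68 with a wide interval of -0.21 to 1.56. Fads1 was at 16.6, 12.8 and 20.25 CPM and Fads2 at 31.6, 29.3 and 30.4 CPM, both overlapping the controls (0.05 and 0.03). Acaca was at 27.1, 38.1 and 50.7 CPM, on both sides of the controls (-0.10, -0.51 to 0.31).

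The remaining 5 genes gave differences between -0.21 (Elovl6) and 0.27 (Scd2) at 20 mg/kg PFOS, all overlapping the controls. In the surrounding lists, 1 gene rose and 2 fell of 54, where 3.69% of all genes rose and 2.85% fell. By limma, 22 of the 54 had an unadjusted p under 0.05, as did 6368 of all 22575 genes. The called genes were Acss2 (0.39, adjusted p = 0.043), Thrsp (-1.45, adjusted p = 0.043), a lipogenic protein of liver and fat, and Fads3 (-0.76, adjusted p = 0.047). All of them lost the call without control testis 1, control testis 2 or PFOS testis 3 (adjusted p up to 0.16, 0.17 and 0.17). Thrsp and Fads3 also lost it without PFOS testis 1, Thrsp without PFOS testis 2 and Fads3 without control testis 3. Mid1ip1 (0.56, adjusted p = 0.067), Cyb5a (-0.54, adjusted p = 0.083) and Fads6 (0.55, adjusted p = 0.10) did not pass. At this dose 2 of 7 tested adipose markers rose and 0 fell, while their summed level of 54.8 to 74.5 CPM lay partly below the controls at 69.8 to 82.8 CPM. Of the Leydig markers 1 rose and 1 fell (summed level 101 to 164 CPM). In addition 1 of 7 macrophage markers and 1 of 4 peritubular markers rose and 1 of 9 Sertoli cell markers fell. The spermatid markers summed to 25331 to 42888 CPM, below the controls at 47665 to 59102 CPM, with 0 of 7 called by limma and 3 at an unadjusted p under 0.05. The part of these cells in the result was not tested. Between 20 and 5 mg/kg PFOS, 0 of the 10 genes differed by limma, where 0.00443% of all genes did. By limma 1 of the 10 had an unadjusted p under 0.05, as did 3986 of all 22575 genes, and limma-voom called 0 of the 10. That was Fads2, lower in all 3 testes at 20 mg/kg (-0.36, adjusted p = 0.28).

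**Figure D3:**
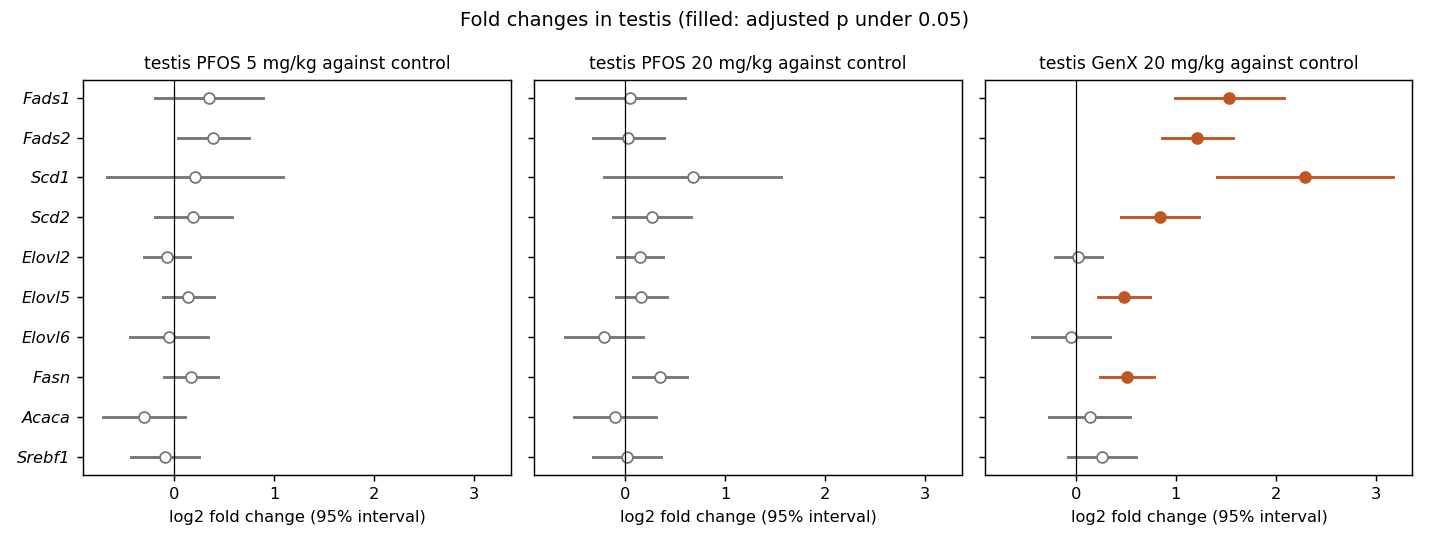
Log2 fold changes with 95% confidence intervals of the 10 genes in testes for the lower and the higher dose of PFOS and for GenX, each against the same 3 controls; filled points passed the adjusted p threshold of 0.05. Scd1 at 2.29, Fads1 at 1.53 and Fads2 at 1.21 stand far from 0 with GenX, while no PFOS point is filled.

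The comparisons with control share the same 3 testes, so the compounds were also compared directly at their shared dose of 20 mg/kg and time of 15 days. This is the 1 pair of compounds compared, PFOS with its sulfonate and GenX with its ether carboxylate. Of the 10 genes, 1 was higher with GenX and 0 were lower, where 0.0886% of all genes were called and 0.0753% were higher. Fads2 was higher with GenX by 1.18 ± 0.16 (95% confidence interval 0.83 to 1.54, adjusted p = 0.022), a fold of 2.27, with no overlap between the groups. The same was seen in the values of Fads1, Scd1 and Srebf1, whose GenX testes all lay above all 20 mg/kg PFOS testes, but their differences did not pass the test over all genes. They were 1.48 for Fads1 (0.94 to 2.03, adjusted p = 0.060), 1.62 for Scd1 (0.73 to 2.50, adjusted p = 0.27) and 0.24 for Srebf1 (-0.09 to 0.58, adjusted p = 0.56). How many of all genes had no overlap between these groups was not counted.

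Scd2 differed by 0.57 between the compounds (0.18 to 0.96, adjusted p = 0.33) and Elovl5 by 0.32 (0.06 to 0.57, adjusted p = 0.38). The intervals of Acaca (-0.17 to 0.65), Elovl2 (-0.36 to 0.10), Elovl6 (-0.23 to 0.55) and Fasn (-0.11 to 0.43) included 0. The count of 1 depended on single testes. The call of Fads2 was lost without PFOS testis 1 (adjusted p = 0.084), PFOS testis 2 (0.11), GenX testis 2 (0.11) or GenX testis 3 (0.11). Without GenX testis 1, both Fads1 and Fads2 passed. PFOS testis 3 lay near the GenX testes on the first principal component. Without this PFOS testis, 4 passed (Fads1, Fads2, Scd1 and Scd2), and the count over all genes went from 20 to 2527. Of these 4 genes, PFOS testis 3 was below all GenX testes for Fads1 (20.25 CPM), Fads2 (30.4 CPM) and Scd1 (4.97 CPM), and within the GenX range for Scd2 (72.4 CPM). In the surrounding lists, 1 of 54 genes was called, Thrsp, which was higher with GenX by 2.68 (adjusted p = 0.022) and lost its call without PFOS testis 1 or 2 or GenX testis 2 or 3 (adjusted p up to 0.13). Idh1 (0.75, adjusted p = 0.32) and Pgd (0.56, adjusted p = 0.35), both sources of NADPH, did not pass. Of the Leydig markers, 3 of 7 were higher with GenX, as was 1 of 3 tested red blood cell markers, where 0.0753% of all genes were higher. None of the other cell type lists had a called marker by limma. The part of these cells in the result was not tested.

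In EP cells, ELOVL5 fell and ELOVL6 rose slightly with PFOS, and the other genes did not pass the test. At 10 nM, 1 of the 9 genes rose and 1 fell, where 12.8% of all genes rose, 12.9% fell and 25.7% were called in all. At 5 µM the counts were again 1 and 1, where 13.2% rose, 13.6% fell and 26.9% were called. The share of the 9 genes called was thus near that of all genes. Both doses were compared with the same control cultures.

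ELOVL5 (chr6:53267404-53348950, GRCh38.p14) was at 112.0 and 119.8 CPM in controls, at 91.9 and 94.3 CPM with 10 nM PFOS and at 94.3 and 92.9 CPM with 5 µM. All 4 treated cultures were below both controls, and the share of all genes that separate in this way was not counted. The log2 fold changes were -0.32 ± 0.05 (SE, n = 2 against 2, 95% confidence interval -0.41 to -0.22, limma adjusted p = 0.00013) and -0.31 ± 0.05 (-0.41 to -0.21, adjusted p = 0.00017). ELOVL6 (chr4:110045846-110199202) was at 96.8 and 99.3 CPM in controls, at 109.8 and 107.5 CPM with 10 nM and at 105.6 and 109.3 CPM with 5 µM, above the controls in all 4 cultures. It rose by 0.15 ± 0.04 (adjusted p = 0.022) and 0.13 ± 0.04 (adjusted p = 0.039). The ELOVL6 call was lost at 10 nM without 10 nM culture 1 (adjusted p = 0.15) or culture 2 (0.081), and at 5 µM without 5 µM culture 1 (0.11), 5 µM culture 2 (0.33) or control culture 1 (0.073).

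The letters of a few known promoter elements were looked for in the 250 bases before the starts of the human genes, read from RefSeq on GRCh38.p14, where 8 of the 9 genes had an entry. The stretches of the 2 elongases that changed are shown here 5′ to 3′ on the gene's strand, with the matched letters in capitals, so that the windows behind the pair can be compared. Those of ELOVL5 are chr6:53349144-53349173, chr6:53349055-53349084 and chr6:53349001-53349030, 211, 122 and 68 bases before the start, and that of ELOVL6 is chr4:110198720-110198749, all on the minus strand. The ELOVL6 stretch lies 122 bases before the start that the promoter table lists, which is a start inside the span given above and not its outer end.
ELOVL5 E-box: atttcccagagaCACGTGgaaccgaggggc
ELOVL5 CCAAT box, on the opposite strand: tattgtcccgcgATTGGctcccgggccgca
ELOVL5 CCAAT box, on the opposite strand: cttcgggtcccgATTGGctggccgcgccat
ELOVL6 GC box: actgtcccccccGGGCGGagagaggtcgcg
The E-box CACGTG was in 6.34% of 35116 such windows, CCAAT in 32.0% and the GC box GGGCGG in 42.6%, both strands read. The letters TCACNCCAC, a form of the sterol response element, were in 0.883% of windows and in 0 of the 8 genes' windows, which says only that these letters are not there. ELOVL6 had no match of the E-box or of CCAAT, and ELOVL5 none of the GC box. The GC box was also matched in ACACA, ELOVL2, FADS1, FADS2, SCD and SREBF1, and CCAAT in ACACA and SCD. None of these other genes was called in EP cells. A match is a description of the letters and not a measured site.

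Synthesis genes moved little in EP cells. FASN was at 901.5 and 835.0 CPM in controls, at 773.9 and 835.6 CPM with 10 nM (-0.11, adjusted p = 0.094) and at 814.1 and 809.7 CPM with 5 µM PFOS (-0.10, adjusted p = 0.14). ACACA was at 207.3 and 220.0 CPM in controls, at 225.6 and 233.0 CPM with 10 nM (0.10, adjusted p = 0.091) and at 229.0 and 231.2 CPM with 5 µM (0.11, adjusted p = 0.073). The ACACA values of all 4 treated cultures were above both controls. SCD, the main desaturase of these cells, was at 688.6 and 669.0 CPM in controls and at 645.0 and 627.2 CPM with 5 µM (-0.09, adjusted p = 0.091), below both controls, and at 673.9 and 650.5 CPM with 10 nM (-0.04). SREBF1 was at 63.0 and 48.7 CPM in controls, far apart from each other, and between 47.6 and 54.6 CPM in the treated cultures.

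FADS1 lay between 144 and 157 CPM and FADS2 between 321 and 353 CPM over the 6 cultures, with log2 fold changes of -0.03 to 0.05. ELOVL2 was at 1.22 to 1.92 CPM. The 2 FADS genes overlap on chromosome 11 (61799627 to 61817003 and 61816203 to 61867354), and the libraries were stranded, but whether counting used the strand is not given in the sources used here. A fit without 1 EP culture leaves 1 culture in that group, and which genes passed varied with the culture left out. Over these fits the log2 fold change of ACACA was 0.06 to 0.15 at each dose. That of FASN was -0.16 to -0.05 at 10 nM and -0.15 to -0.04 at 5 µM. SREBF1 ranged from -0.23 to 0.14 at 10 nM and from -0.34 to 0.03 at 5 µM. SCD ranged from -0.11 to -0.07 at 5 µM. The treated EP libraries were also deeper (41.1 to 48.7 M reads) than the controls (33.3 and 39.1 M), and the part of depth was not tested. Of 8 embryonal carcinoma markers, 1 rose and 5 fell at each dose. Over all genes, 12.8% rose and 12.9% fell at 10 nM, and 13.2% rose and 13.6% fell at 5 µM. These 8 markers summed to 4393 to 4509 CPM in the treated cultures. Of 3 tested markers of differentiated derivatives 0 were called by limma at either dose (1 had an unadjusted p under 0.05 at 10 nM and 0 at 5 µM).

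**Figure D4:**
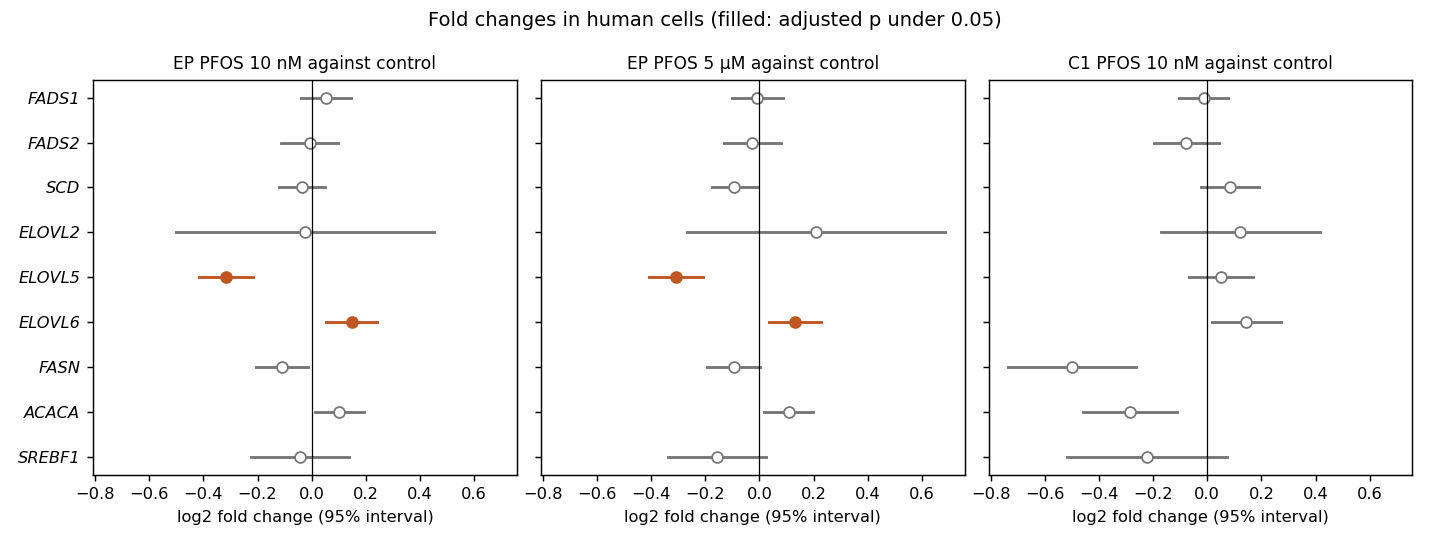
Log2 fold changes with 95% confidence intervals of the 9 human genes for EP cells at 10 nM and 5 µM PFOS and for C1 cells at 10 nM PFOS, each against the controls of its own table; filled points passed the adjusted p threshold of 0.05. ELOVL5 near -0.3 and ELOVL6 near 0.1 are filled at both EP doses, and the C1 point farthest from 0, FASN at -0.50, is open.

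Between 5 µM and 10 nM, 0 of the 9 genes and 0% of all genes differed by limma. Of the 9 genes 0 had an unadjusted p under 0.05 (552 of all genes did), and limma-voom called 0 of the 9. For ELOVL5 the difference between doses was 0.01 (95% confidence interval -0.09 to 0.11) and for ELOVL6 -0.02 (-0.11 to 0.08).

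In the surrounding lists, 10 of 52 genes rose and 7 fell at each dose in EP cells. Over all genes, 12.8% rose and 12.9% fell at 10 nM, and 13.2% rose and 13.6% fell at 5 µM. The elongation cycle gave 5 of 9 higher and 0 lower at both doses (medians 0.20 and 0.19). HSD17B12 rose by 0.27 and 0.24, kept in every fit without 1 culture. ELOVL1, which makes very long chains, rose by 0.30 and 0.25 and HACD2 by 0.27 and 0.29, ELOVL1 losing its call at 5 µM without 5 µM culture 2 (adjusted p = 0.14) and HACD2 at 10 nM without 10 nM culture 1 (0.061). PGD, a source of NADPH, fell at both doses (-0.30 and -0.29), as did CYB5R3 (-0.50 at each). NDUFAB1 rose by 0.33 and 0.37 and MBTPS2, the site 2 protease that releases SREBPs, by 0.30 and 0.26. These 4 kept their calls in every fit without 1 culture. DEGS1 rose by 0.26 and 0.29, lost at 10 nM without 10 nM culture 2 (adjusted p = 0.058). MLXIP, CBR4, MECR and ACSL3 were called at both doses, and each lost its call in at least 1 fit without 1 culture at each dose. Called at 1 dose, and lost without at least 2 of the 4 cultures or, for MID1IP1, without 1, were MID1IP1 (-0.16), MBTPS1 (-0.14) and ACSL5 (1.01) at 10 nM and MLXIPL (-0.98), CYB5A (0.37) and ACSL4 (-0.11) at 5 µM. IDH1 (0.08 at each dose) and LPCAT3 (0.10 and 0.12) did not pass. In the 10 fits with other settings, HSD17B12 and MBTPS2 were called in 9 at each dose (adjusted p up to 0.097 and 0.080). The calls of PGD, CYB5R3 and NDUFAB1 held in all 10.

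In C1 cells, 0 of the 9 genes were called by limma and 0% of all genes. By limma 3 of the 9 had an unadjusted p under 0.05, as did 2768 of all genes, and limma-voom called 0 of the 9. FASN stood out among them, at 308.3, 274.0, 263.9 and 271.8 CPM in controls and at 152.4, 228.1, 222.9 and 195.0 CPM with 10 nM PFOS. The 4 treated cultures were all below the 4 controls for FASN, and the share of all genes that separate in this way was not counted. The log2 fold change was -0.50 ± 0.11 (SE, n = 4 against 4, 95% confidence interval -0.74 to -0.26, adjusted p = 0.27). Without PFOS culture 1, the library that stood apart, FASN passed the test (-0.38, adjusted p = 0.041) as 1 of 7 genes called in all.

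ACACA, the enzyme before FASN, was at 284.6, 274.6, 250.3 and 230.9 CPM in C1 controls and at 189.6, 222.4, 236.6 and 204.9 CPM with PFOS, 3 of 4 cultures being below all controls (-0.29, adjusted p = 0.28). ELOVL6 was at 151.2, 159.6, 151.6 and 153.0 CPM in controls and at 183.7, 155.9, 179.0 and 162.6 CPM with PFOS (0.14, adjusted p = 0.29). ELOVL5, which fell in EP cells, was at 180.5, 189.7, 181.3 and 173.4 CPM in controls and at 196.6, 179.6, 177.1 and 197.8 CPM with PFOS. Its difference was 0.05 (-0.07 to 0.17), and whether the lines differ in their response was not tested.

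**Figure D5:**
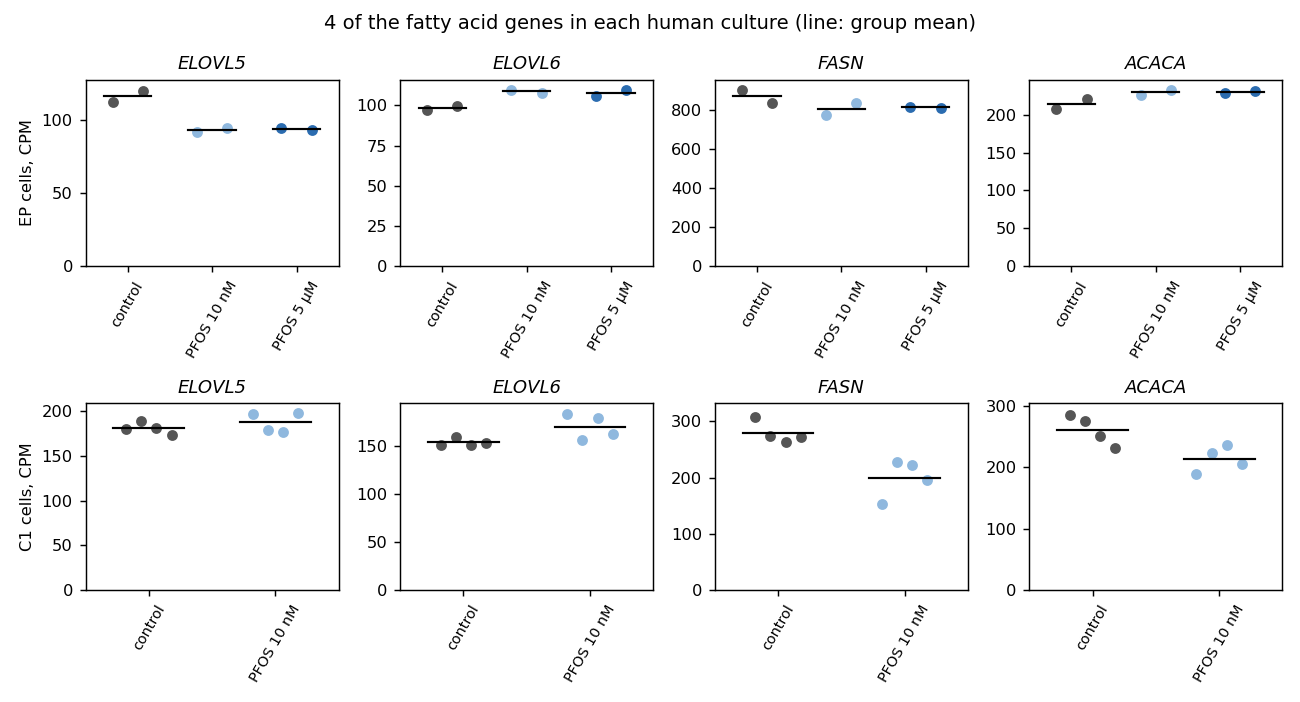
CPM on a linear axis from 0 of ELOVL5, ELOVL6, FASN and ACACA in every EP culture (top) and C1 culture (bottom), grouped by dose; points are single cultures and lines are group means. All 4 treated EP cultures lie below both controls for ELOVL5, and all 4 treated C1 cultures lie below the 4 controls for FASN. The share of all genes that separate in this way was not counted.

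SREBF1 was at 23.4, 18.9, 19.1 and 22.2 CPM in C1 controls and at 12.8, 20.32, 19.7 and 19.6 CPM with PFOS, a difference of -0.22 (-0.52 to 0.07) in which culture 1 alone lay below the controls. SCD was at 793.6 to 865.6 CPM in controls and 841.5 to 905.5 CPM with PFOS (0.08, -0.02 to 0.19). FADS1 had a difference of -0.01 (-0.10 to 0.08), FADS2 of -0.08 (-0.20 to 0.04) and ELOVL2 of 0.12 (-0.17 to 0.42). Of the 54 genes tested in the surrounding lists, 0 were called by limma and 7 had an unadjusted p under 0.05. The embryonal carcinoma markers summed to 5988 to 6138 CPM in controls and 6172 to 6517 CPM with PFOS, with 0 of 8 called by limma and 3 at an unadjusted p under 0.05, and of 2 tested markers of differentiated derivatives 0 were called by limma and 0 had an unadjusted p under 0.05.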

How the data were processed

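RNA-seq libraries came from 12 mouse testes, 6 EP cultures and 8 C1 cultures. Per the study's methods, the authors made stranded mRNA libraries, trimmed reads with Trimmomatic, aligned with STAR (mouse GRCm39, human GRCh38, for which the labels give GRCh38.p14 and the methods another patch) and used featureCounts to obtain reads per gene. The deposited values are log2 CPM (counts per M reads, with a small prior count), 1 table per experiment, normalized by the authors' library factors (0.951 to 1.02 where recovered). Whole reads were recovered for 100% of values (tolerance 0.02 reads). Per the labels and the tables, mouse genes carry numeric identifiers, of which 17522 of 25770 (68%) were given a symbol through GENCODE M21. The 4 rows with no name in the EP table were left out.

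Genes at or above a CPM of 0.585 in 3 testes, 0.233 in 2 EP or 0.329 in 4 C1 libraries (10 reads in a library of median size) were tested. Models were fitted to the log2 CPM by limma 3.58.1, run under R 4.3.3 (variance trend, all groups of a table in 1 fit), with Benjamini-Hochberg adjustment over all genes. Exon lengths for levels per kilobase came from GENCODE M21 and 44. The scripts were tested on simulated data. The alternatives tried were limma-voom, other scalings, prior counts and filters, no variance trend, only the 2 groups compared, a replicate block and leaving out each library. All 10 genes were named, and of each surrounding list the 3 with the smallest p where the list had a call. The members and lists were chosen with earlier results of these data known. Mouse coordinates are not printed, and the order of neighbouring mouse genes was read from GENCODE M21 (GRCm38). No replicates agreed within sampling noise.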

Additional observations from a re-analysis of the deposited data

Results flagged for a closer look

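Of 18 groups of a gene in 4 cultures, 1 held a value far from the rest, where chance gives about 1 in 20. It was SREBF1 in C1 cells with 10 nM PFOS, whose lowest culture, number 1, was at 3.69 log2 CPM while the nearest of the other cultures was at 4.30, a gap of 0.921 of the group's range. The same culture stood apart over all genes.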

How the results depend on the processing

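The count of genes called with GenX against control was 6 in every alternative fit with all libraries and 5 to 6 when 1 testis was left out. For 20 mg/kg PFOS it was 0 to 1 when 1 testis was left out, and for C1 cells 0 to 1 when 1 culture was left out. GenX against 20 mg/kg PFOS gave 1 call, 0 without the variance trend, 2 with the replicate block and 0 to 4 when 1 testis was left out. EP cells gave 2 calls at each dose, 1 at each without the variance trend and 1 at each with only the 2 groups in the fit. A fit without 1 EP culture leaves 1 culture in that group, and the number of calls then varied. The replicate block changed no other count of the 10 genes by more than 1.5 times. Over all genes, the count for 20 mg/kg PFOS against control was 1477, 809 with limma-voom, 12 without the variance trend and 4 with only the 2 groups in the fit, and that for GenX against 20 mg/kg PFOS was 20 and 5 without the variance trend. In EP cells it was 4298 at 10 nM and 4484 at 5 µM, and 1531 and 1567 without the variance trend. Replicate numbers gave no clear pairing of the samples. Same-numbered samples of different groups correlated at -0.19 to 0.20 in their deviations from the group means, and differently numbered ones at -0.13 to 0.19. In EP cells, with 2 cultures a group, these values are equal and opposite by construction and cannot show whether cultures were paired.

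No called difference changed sign in any fit. Scaling by total reads only turned small differences in EP cells, at 10 nM FADS2 to 0.0473, SCD to 0.0194, ELOVL2 to 0.0269 and SREBF1 to 0.0126, and at 5 µM FADS1 to 0.0394 and FADS2 to 0.0206. With 1 library left out, uncalled differences crossed 0 for 5 mg/kg PFOS in Elovl6 (-0.21 to 0.0784) and Srebf1 (-0.23 to 0.00366), for 20 mg/kg PFOS in Fads1 (-0.10 to 0.24), Fads2 (-0.0740 to 0.22), Acaca (-0.32 to 0.13) and Srebf1 (-0.0813 to 0.10), and for GenX in Elovl2 (-0.00997 to 0.0505) and Elovl6 (-0.21 to 0.0547). In EP cells they did so at 10 nM in FADS2 (-0.0665 to 0.0508), ELOVL2 (-0.30 to 0.25) and SREBF1 (-0.23 to 0.14), and at 5 µM in FADS1 (-0.0409 to 0.0253), FADS2 (-0.0853 to 0.0320), ELOVL2 (-0.0636 to 0.48) and SREBF1 (-0.34 to 0.0293). The cause was not tested.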
